A study of Mus musculus with 39 samples.

Results

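The ATP-binding cassette (ABC) genes were read in RNA sequencing of mouse duodenum. Members were all gene symbols of the deposited count table made of Abc, a subfamily letter from a to g and a number, which gave 41 genes of 16358. They comprised 10 Abca, 8 Abcb, 9 Abcc, 4 Abcd, 1 Abce, 3 Abcf and 6 Abcg genes. All 41 passed the low-count filter of every fit, and the lowest count of any member in any library was 11. Abcb11 was not analysed here.

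ABC proteins bind and hydrolyse ATP with a pair of conserved nucleotide-binding domains, and most of them use that energy to move a substrate across a membrane. In the gut epithelium they return plant sterols, drugs and conjugated metabolites to the lumen, pass conjugates to the blood, and load cholesterol onto nascent high-density lipoprotein. Other members work inside the cell, in mitochondria, peroxisomes and lysosomes. The Abce and Abcf proteins lack membrane-spanning segments and act with the ribosome.

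The series compared brain leptin with saline, and oral antibiotics with plain water, in wild-type male C57BL/6 mice that were 8 weeks old at surgery. Every mouse, controls included, carried a cannula in the right lateral ventricle of the brain, went without food for 2 h and was injected 3 days after surgery, and its duodenum was taken 2 h after injection. Saline-water mice drank plain water and received saline, and Leptin-water mice drank plain water and received 3 µg of leptin, the adipocyte hormone that acts on hypothalamic energy circuits. Saline-antibiotic and Leptin-antibiotic mice received the same injections after 48 h of drinking water with ampicillin at 1 g/L and neomycin at 0.5 g/L. The names of the 39 libraries fall into a pair of kinds, called set M and set MT here. Set M comprised 8 libraries of Saline-water and 7 of Leptin-water. All 4 groups were present in set MT, with 6 libraries apiece. The labels number the libraries but do not state that each is a separate animal, so the p-values measure the spread between these samples.

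Library totals ranged from 30207536 to 67870777 counts with a median of 48282125, and ABC genes took 0.257% to 0.427% of them. Levels are in CPM, counts per 1000000 library counts after scaling. The enterocyte marker Alpi, intestinal alkaline phosphatase, lay between 2749 and 5497 CPM in the 39 libraries. Libraries of set M stood apart in liver genes. Albumin (Alb) lay between 67.7 and 634 CPM in the 15 libraries of set M and had a median of 0.322 CPM in the 24 of set MT, where Saline-antibiotic 2 reached 41.1 CPM. Exocrine pancreas genes were high (mean of 10 genes above 4 log2 CPM) in Leptin-antibiotic 3, Leptin-water 6, Leptin-water 10 and Saline-antibiotic 1, 2 and 5. Results were therefore also computed without these 6 libraries. The tissue was sequenced in bulk, so fewer cells of a type and less RNA per cell cannot be told apart.

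The most abundant ABC gene of the duodenum was Abcc2, which encodes the apical exporter of glutathione and glucuronide conjugates. Levels of different genes are given per kilobase of exon, in CPM per kb, as mean ± SD over the 39 libraries. Abcc2 averaged 116 ± 26.3 CPM per kb, above 98.4% of the genes with a known length. It alone took 27.9% of all ABC counts. The 8 most counted members together took 71.1%, and the mean levels of the 41 spanned 723-fold. The median member stood at 5.47 CPM per kb, beside 3.62 for all genes with a length.

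Sterol exporters came next. Abcg5 averaged 68.1 ± 9.33 CPM per kb and Abcg8 56.3 ± 8.11, and their products form the heterodimer that pumps plant sterols and cholesterol back into the lumen. Abcd3, a peroxisomal transporter of acyl-CoA esters, lay between them at 60.6 ± 9.67. The gaps between these 3 neighbours in the order were smaller than 1 SD. Abca1, which loads cholesterol onto apolipoprotein A-I, averaged 5.47 ± 1.57 CPM per kb. Abcg1, a cholesterol exporter best known from macrophages, averaged 0.678 ± 0.107.

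Abcg5 (chr17:84658234-84683011, minus strand) and Abcg8 (chr17:84676302-84700333, plus strand) overlap on opposite strands in the mm10 build. RefSeq places their start sites at 84683011 and 84683121. The 109 bases between those starts are shown because the pair also moved together across libraries. GENCODE vM21 starts Abcg8 at 84676302, so the stretch lies within the outer bounds of its annotated Abcg8 gene. The sequence is from GRCm38.p6, chr17:84683012-84683120, plus strand, and capitals mark the GATA site AGATAA and the TATA box TATAAA. Both were searched on both strands, both appear here as they read on the other strand, with TTATCT for the former and TTTATA for the latter, and no match overlaps another.
Abcg5 to Abcg8: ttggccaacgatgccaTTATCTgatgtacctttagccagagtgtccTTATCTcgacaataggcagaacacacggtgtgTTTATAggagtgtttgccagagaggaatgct
The letters AGATAA occur in the 250 bases before the start of 9.99% of 32817 RefSeq promoters, and of 4 of the 29 members with an entry. TATAAA occurs in 12.4% of them, and in 4 of the 29 members. A member counts if any of its promoters holds the letters, so these counts and the shares of promoters are unlike measures. Both counts include Abcg5 and Abcg8, which share the stretch shown.

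Among exporters of drugs and conjugates, Abcc3, which encodes the basolateral exporter of glucuronides and bile salts, averaged 48.4 ± 6.38 CPM per kb. Abcb1a and Abcb1b, the rodent pair of P-glycoprotein genes, averaged 43.3 ± 11.7 and 2.53 ± 0.702. Abcg2, the apical exporter of urate, porphyrins and many drugs, averaged 14.1 ± 1.84. Abcc4 and Abcc1, exporters of organic anions found in many tissues, averaged 1.44 ± 0.182 and 1.25 ± 0.167.

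Of the organelle transporters, Abcb10, a mitochondrial protein of heme synthesis, averaged 12.3 ± 1.30 CPM per kb, and Abcb6, a porphyrin transporter, 5.61 ± 0.648. Abcf1 and Abce1, which act in translation initiation and ribosome recycling, averaged 22.3 ± 1.63 and 11.1 ± 1.95. Abcc8, a subunit of ATP-sensitive potassium channels, Abcb4, Abcd2 and Abcg4 closed the order at 0.262, 0.260, 0.195 and 0.160 CPM per kb. Of the 40 pairs of neighbours in the order, 26 were closer than 1 SD of the higher member, and in 3 pairs 1 member was higher in all 39 libraries.

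**Figure D1:**
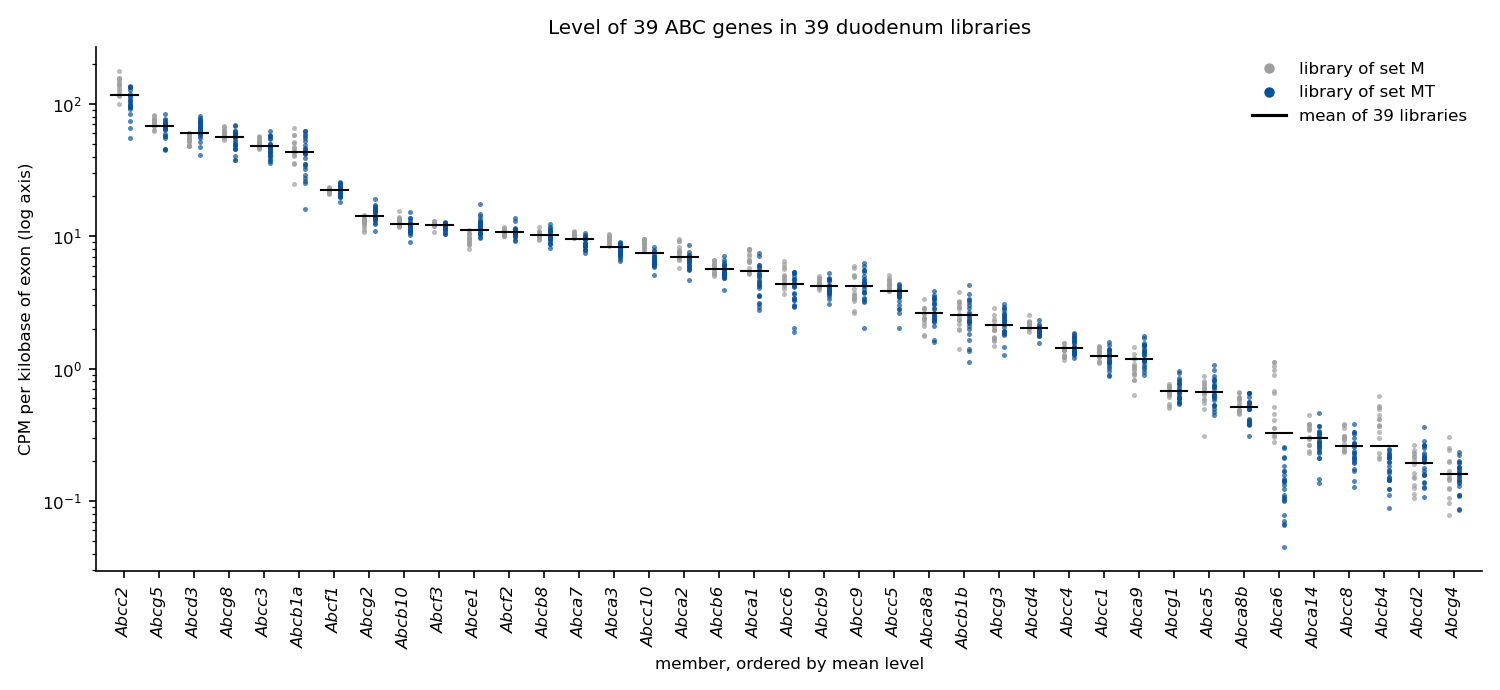
Level of 39 ABC genes (x axis, ordered by mean) in CPM per kilobase of exon (y axis, log scale); each point is 1 library, grey for set M and blue for set MT, and black bars are means of the 39 libraries. Abcc2 stands highest at 116 CPM per kb, all set M points of Abca6 lie above all set MT points, and those of Abcb4 mostly do.

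In edgeR 7 ABC genes were called with antibiotics, 3 upward and 4 downward, all by small amounts. Averaged over both injections, 12 antibiotic libraries of set MT were compared with 12 water libraries by edgeR's quasi-likelihood F test, with Benjamini-Hochberg adjustment over all genes. Of the 41 members, 7 passed an adjusted p of 0.05, beside 6.45% of all 16340 genes tested. Abcf1 and Abcb8 were among the 3 that rose, beside 4.24% of all genes. Abca1, Abca8a, Abca9 and Abcc3 fell, beside 2.22% of all genes. With upper quartile scaling 1 member rose and 5 fell, beside 6.82% of all genes, and with an enterocyte marker score (mean log2 CPM of 9 genes) as a covariate 1 rose and 8 fell, beside 4.51%. Limma voom and the fit of all 39 libraries each called 11, beside 13.5% and 10.8% of all genes. The median log2 fold change was -0.05 over the members and -0.0008 over all genes, and 17 members had an unadjusted p under 0.05, beside 22.8% of all genes. In no member did the 12 antibiotic libraries separate from the 12 water libraries, beside 0.0245% of all genes.

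Abca1 (chr4:53030787-53159895, minus strand) fell by 0.44 on the log2 scale (SE 0.10, adjusted p = 0.0101). On water its lowest, median and highest levels were 42.1, 46.8 and 62.6 CPM with saline and 43.5, 59.8 and 77.4 with leptin. On antibiotic they were 28.6, 32.2 and 44.3 CPM with saline and 36.9, 49.5 and 63.4 with leptin. The ranges overlapped, with 11 of 12 antibiotic libraries under the water median and 7 under every water library. Within the saline groups the difference was -0.54 (adjusted p = 0.107) and within the leptin groups -0.34 (adjusted p = 0.185), so neither passed alone in the fit of these 24 libraries. The saline difference passed in DESeq2 (adjusted p = 0.0267), in the edgeR fit of all 39 libraries (-0.62, adjusted p = 0.0112) and with the enterocyte score as a covariate (-0.63, adjusted p = 0.035). The leptin difference passed in limma voom (-0.46, adjusted p = 0.0311).

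Abca8a and Abca9 belong to a row of 5 Abca genes on chromosome 11. Abca8a fell by 0.42 (SE 0.10, adjusted p = 0.0106 in edgeR), from 14.2, 20.5 and 24.02 CPM on water to 10.0, 14.9 and 17.9 on antibiotic (lowest, median, highest of 12). Abca9 fell by 0.34 (SE 0.08, adjusted p = 0.0124 in edgeR), from 8.25, 12.0 and 14.2 CPM to 7.24, 9.28 and 11.4. All 12 antibiotic libraries lay under the water median for both genes. Their neighbour Abca8b had a log2 difference of -0.33 (adjusted p = 0.0655), Abca5 of -0.08 (adjusted p = 0.729) and Abca6 of -0.18 (adjusted p = 0.721).

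Abcc3 (chr11:94343295-94392997, minus strand) fell by 0.24 (SE 0.07, adjusted p = 0.0496 in edgeR), at the edge of the threshold. Its levels were 233, 282 and 357 CPM on water and 203, 240 and 323 on antibiotic, with 11 of 12 antibiotic libraries under the water median. Without the libraries high in pancreas genes the difference was -0.13 (adjusted p = 0.298). Leaving out 1 library ended the call in 18 of 24 cases, and over the 24 the log2 difference lay between -0.29 and -0.21.

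Abcf1 (chr17:35956819-35969761, minus strand) had the lowest adjusted p of the members, with a rise of 0.20 (SE 0.04, adjusted p = 0.00263 in edgeR). Its lowest, median and highest levels on water were 87.6, 91.8 and 105.9 CPM with saline and 80.6, 90.1 and 99.1 with leptin. On antibiotic they were 93.3, 103.9 and 105.9 CPM with saline and 102.5, 108.7 and 113.0 with leptin. All 12 antibiotic libraries lay above the water median. Between the leptin groups, all 6 Leptin-antibiotic libraries lay above all 6 Leptin-water libraries.

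Abcb8, a transporter of the inner mitochondrial membrane, rose by 0.18 (SE 0.05, adjusted p = 0.0302 in edgeR), from 38.4, 45.6 and 51.8 CPM on water to 44.6, 50.6 and 59.0 on antibiotic. Of the 12 antibiotic libraries, 11 lay above the water median. With upper quartile scaling its difference was 0.14 (adjusted p = 0.0841), and without the libraries high in pancreas genes 0.16 (adjusted p = 0.0729). Leaving out 1 library ended the call without Leptin-water 8, 9 or 10, Saline-antibiotic 1 or 4, or Saline-water 12 or 14. Abcc6 and Abcd3 lay just outside the threshold, with log2 differences of 0.41 (adjusted p = 0.0524) and 0.23 (adjusted p = 0.0549).

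Abcg5, Abcg8, Abcc2, Abcb1a and Abcg2 did not pass with antibiotic. Abcg5 had 121, 187 and 228 CPM on water and 124, 181 and 203 on antibiotic, a log2 difference of -0.10 (SE 0.08, adjusted p = 0.471). Abcg8 had a difference of -0.07 (SE 0.09, adjusted p = 0.681). Abcc2 had -0.16 (SE 0.11, adjusted p = 0.395) and Abcb1a -0.13 (SE 0.16, adjusted p = 0.675). Abcg2 had 0.0083 (SE 0.07, adjusted p = 0.966), and -0.25 (adjusted p = 0.0207) with the enterocyte score as a covariate. The mitochondrial transporter Abcb10 had a difference of 0.14 (adjusted p = 0.173). Abcg1 had -0.21 (adjusted p = 0.191).

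**Figure D2:**
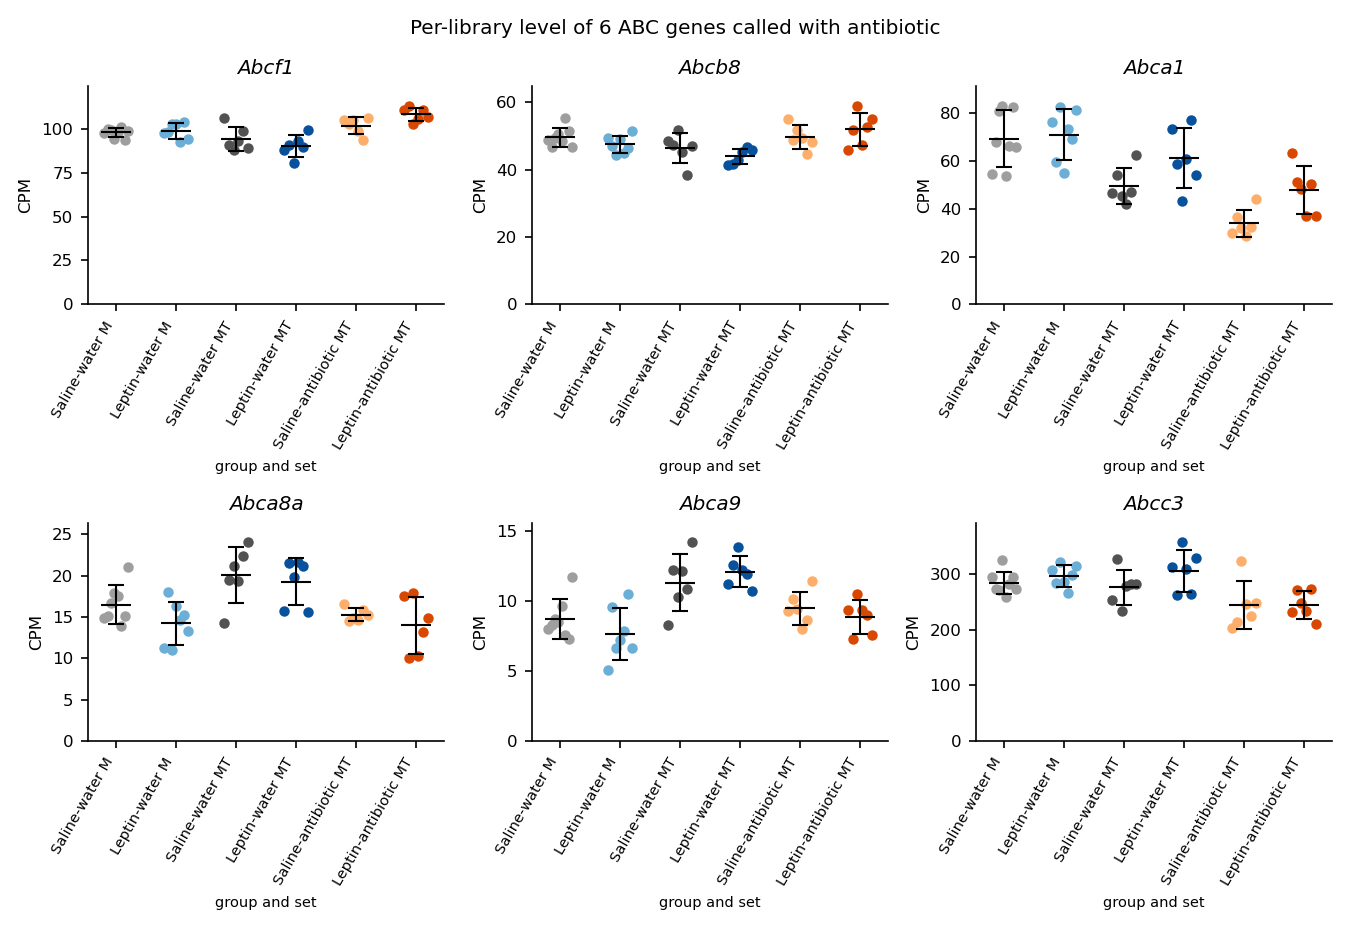
Level in CPM (y axis, from 0) of 6 ABC genes called with antibiotic, by group and set (x axis); each point is 1 library, and bars show the mean and SD of 6 to 8 libraries. Abcf1 and Abcb8 sit higher, and Abca1, Abca8a, Abca9 and Abcc3 lower, in the antibiotic groups than in the water groups of set MT, and in each of these genes the 12 antibiotic and 12 water libraries overlap.

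Markers of other cells moved with antibiotic too. Of 9 enterocyte markers 5 rose, beside 4.24% of all genes, and all 9 had positive differences. The enterocyte score (mean log2 CPM of the 9) lay between 10.20 and 10.95 on water and between 10.35 and 11.45 on antibiotic. Of 7 smooth muscle markers 2 rose, beside 4.24% of all genes. The smooth muscle score lay between 5.96 and 7.40 on water and between 6.72 and 7.61 on antibiotic. Of 6 macrophage markers 2 fell, beside 2.22% of all genes, with scores of 4.30 to 4.95 on water and 3.96 to 4.77 on antibiotic. With the enterocyte score as a covariate, added after seeing the data, Abcb8 had a log2 difference of 0.19 (adjusted p = 0.0937). With that covariate Abcf1, Abca1, Abca8a, Abca9 and Abcc3 were still called, at 0.22, -0.57, -0.46, -0.47 and -0.43. Abcf1, Abca1 and Abca8a passed under all 10 other settings and without each of the 24 libraries in turn. The number of members called was 4 without Leptin-water 8, without Saline-antibiotic 4 or without Saline-water 12.

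The 250 bases before the RefSeq starts of Abca1 and Abcf1 are shown because these genes carried the lowest adjusted p in each direction. Both come from GRCm38.p6 and are written along the minus strand, Abca1 from chr4:53159896-53160145 and Abcf1 from chr17:35969751-35970000. Capitals mark the E-box CACGTG, the GC box CCGCCC and the TATA box TATAAA, each searched on both strands, so that GGGCGG is a GC box on the other strand. No marked word overlaps another.
Abca1: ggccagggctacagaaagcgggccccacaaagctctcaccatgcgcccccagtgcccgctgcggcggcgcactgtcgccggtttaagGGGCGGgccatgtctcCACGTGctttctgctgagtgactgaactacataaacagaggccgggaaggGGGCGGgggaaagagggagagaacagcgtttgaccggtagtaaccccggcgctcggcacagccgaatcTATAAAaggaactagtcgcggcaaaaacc
Abcf1: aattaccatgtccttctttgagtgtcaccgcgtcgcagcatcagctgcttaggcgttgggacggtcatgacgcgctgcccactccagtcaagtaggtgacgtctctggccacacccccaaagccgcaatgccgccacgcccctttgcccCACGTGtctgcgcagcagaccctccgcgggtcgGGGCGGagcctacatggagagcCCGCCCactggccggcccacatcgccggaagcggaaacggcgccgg
The Abca1 stretch held CACGTG at -147 and TATAAA at -29 from the start, and the Abcf1 stretch held CACGTG at -101 and had no TATAAA match. The letters CACGTG occur in 6.02% of the 32817 promoters of the same length, and in 4 of the 29 members with an entry. CCGCCC occurs in 32.7% of the promoters, and in 17 of the 29 members. Here too a member counts if any of its promoters holds the letters, so the counts cannot be set against the shares.

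Within the leptin-injected mice, 2 of 41 members passed with antibiotic, beside 2.28% of all genes, and 12 had an unadjusted p under 0.05, beside 18.9%. The count was 6 in DESeq2, 10 in limma voom and 9 in the fit of all 39 libraries, beside 5.22%, 8.53% and 11.7% of all genes. It was 5 with tissue marker scores as covariates, beside 8.63%, and 1 without the libraries high in pancreas genes, beside 1.25%. Abcf1 rose by 0.28 (SE 0.05, adjusted p = 0.00822 in edgeR). Abca9 fell by 0.44 (SE 0.11, adjusted p = 0.0402 in edgeR), from 10.7, 12.1 and 13.8 CPM to 7.24, 9.14 and 10.49. In 3 members the 6 libraries of each group did not overlap, beside 2.74% of all genes. These were Abcf1, Abca9 and Abcg3, which had 8.27, 8.99 and 10.8 CPM on water and 6.84, 7.53 and 8.11 on antibiotic (log2 difference -0.31, adjusted p = 0.267). Abca9 lost its call without Leptin-antibiotic 2, 4, 5 or 6 and without Leptin-water 8, 9, 10 or 11. The count of members was 1 without Leptin-antibiotic 2, 4 or 5 or Leptin-water 8, 9, 10 or 11, 4 without Leptin-antibiotic 1 or Saline-water 13, and 5 without Leptin-water 12. Differences that did not pass included 0.56 for Abcc6 (adjusted p = 0.0912), 0.25 for Abcb8 (adjusted p = 0.0532), -0.45 for Abca8a (adjusted p = 0.0731) and -0.43 for Abca8b (adjusted p = 0.135).

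Within the saline-injected mice no member passed with antibiotic in edgeR, beside 0.196% of all genes. At an unadjusted p under 0.05 there were 9 members, beside 12.5% of all genes. DESeq2 and the fit of all 39 libraries each called 1, Abca1, beside 1.12% and 1.32% of all genes, and tissue marker scores as covariates gave 1, beside 1.44%. With the enterocyte score as a covariate 3 members passed, beside 2.31% of all genes, namely Abca1 (-0.63, adjusted p = 0.035), Abce1 (0.36, adjusted p = 0.0464) and Abcg2 (-0.27, adjusted p = 0.0472). Without it, Abcd3 had a log2 difference of 0.28 (adjusted p = 0.246) and Abce1 of 0.25 (adjusted p = 0.286). Abca8a had -0.39 (adjusted p = 0.244), Abcd2 -0.34 (adjusted p = 0.576) and Abcc6 0.27 (adjusted p = 0.568). The sterol exporters Abcg5 and Abcg8 had differences of -0.23 (adjusted p = 0.405) and -0.25 (adjusted p = 0.401).

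Leptin called no ABC gene on plain water. All 27 water libraries entered that fit, with set as a term, and 0 of 41 members passed in edgeR, beside 0.312% of all genes. DESeq2 and limma voom also called 0 members. At an unadjusted p under 0.05 there were 5 members, beside 11.4% of all genes. The median log2 difference was 0.02 over the members and -0.0068 over all genes.

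The lowest adjusted p on water belonged to Abcc2 (chr19:43782192-43840740, plus strand). Its lowest, median and highest levels in set M were 852, 1061 and 1282 CPM with saline and 999.5, 1247 and 1516 with leptin. In set MT they were 468, 819 and 1139 CPM with saline and 808, 1084 and 1156 with leptin. In each set 3 leptin libraries lay above every saline library, and the ranges overlapped. The log2 difference was 0.29 (SE 0.09, adjusted p = 0.173 in edgeR), with 0.23 within set M and 0.36 within set MT.

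No other leptin difference on water passed either. Abcb1a had a log2 difference of 0.31 (SE 0.15, adjusted p = 0.425), with 137, 250 and 318 CPM in set M saline and 220, 236 and 358 in set M leptin. In set MT the saline libraries lay at 88.2, 196 and 343 CPM and the leptin libraries at 214, 297 and 324. Abcb1b had 0.26 (adjusted p = 0.532), Abca2 -0.20 (adjusted p = 0.199) and Abcd2 -0.17 (adjusted p = 0.73). Abca6 had -0.60 (adjusted p = 0.256), and all 3 hepatocyte markers also had negative differences, none of which passed. All 10 exocrine pancreas markers had positive differences, and none passed. The test of a different leptin effect in the sets called 0 members, beside 0.0428% of all genes, and 3 members had an unadjusted p under 0.05, beside 9.86%. Those were Abcc9, a regulatory subunit of ATP-sensitive potassium channels in smooth muscle (-0.70, set MT minus set M, adjusted p = 0.311), Abcb4 (0.85, adjusted p = 0.343) and Abcd3 (0.32, adjusted p = 0.393). Abca6 had 0.48 and Abcc8 0.38 in that test, with adjusted p of 0.779 and 0.542.

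After antibiotic, leptin called no member in the edgeR fit of the 24 libraries, beside 0.514% of all genes. At an unadjusted p under 0.05 there were 8 members, beside 17.2% of all genes. DESeq2 and the fit of all 39 libraries each called 2, Abca1 and Abcb9, beside 3.36% and 3.35% of all genes, and without Saline-antibiotic 6 Abca1 passed. Abca1 had a log2 difference of 0.50 (SE 0.14, adjusted p = 0.0906 in edgeR and 0.0266 in DESeq2). All 6 Leptin-antibiotic libraries lay above the Saline-antibiotic median and 4 above every Saline-antibiotic library. This comparison and the antibiotic comparison within saline share the 6 Saline-antibiotic libraries. Abcb9, a lysosomal peptide transporter, had a difference of 0.28 (SE 0.08, adjusted p = 0.109 in edgeR and 0.0481 in DESeq2).

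The heterodimer genes Abcg5 and Abcg8 had positive differences in this comparison without passing. Abcg5 had 124, 153 and 203 CPM with saline and 179.5, 188 and 197 with leptin, a log2 difference of 0.31 (adjusted p = 0.174). Abcg8 had 142, 176 and 224 CPM with saline and 186, 219 and 233 with leptin, a difference of 0.30 (adjusted p = 0.207). All 6 leptin libraries lay above the saline median for both genes. Abcc2 had a difference of 0.31 (adjusted p = 0.286), Abcb1a 0.40 (adjusted p = 0.361) and Abcb1b 0.34 (adjusted p = 0.46). Abca5 had -0.37 (adjusted p = 0.269), Abce1 -0.23 (adjusted p = 0.219) and Abcc1 -0.17 (adjusted p = 0.475). All 9 enterocyte markers had positive differences and none passed. With the enterocyte score as a covariate 1 member had an unadjusted p under 0.05, and Abca1 had a difference of 0.38 (adjusted p = 0.652). Abca1 had 0.45 once the 6 pancreas-high libraries were left out (adjusted p = 0.519).

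The effect of leptin with and without antibiotic was compared by the interaction term of the same fit. No member passed in edgeR, beside 0% of all genes, and DESeq2 and limma voom also called 0. At an unadjusted p under 0.05 there were 3 members, beside 6.38% of all genes. They were Abce1 (-0.32), Abca5 (-0.52) and Abcg8 (0.37), each with an adjusted p of 0.772. Abcc8 had -0.36 (adjusted p = 0.802) and Abcc6 0.30 (adjusted p = 0.811).

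**Figure D3:**
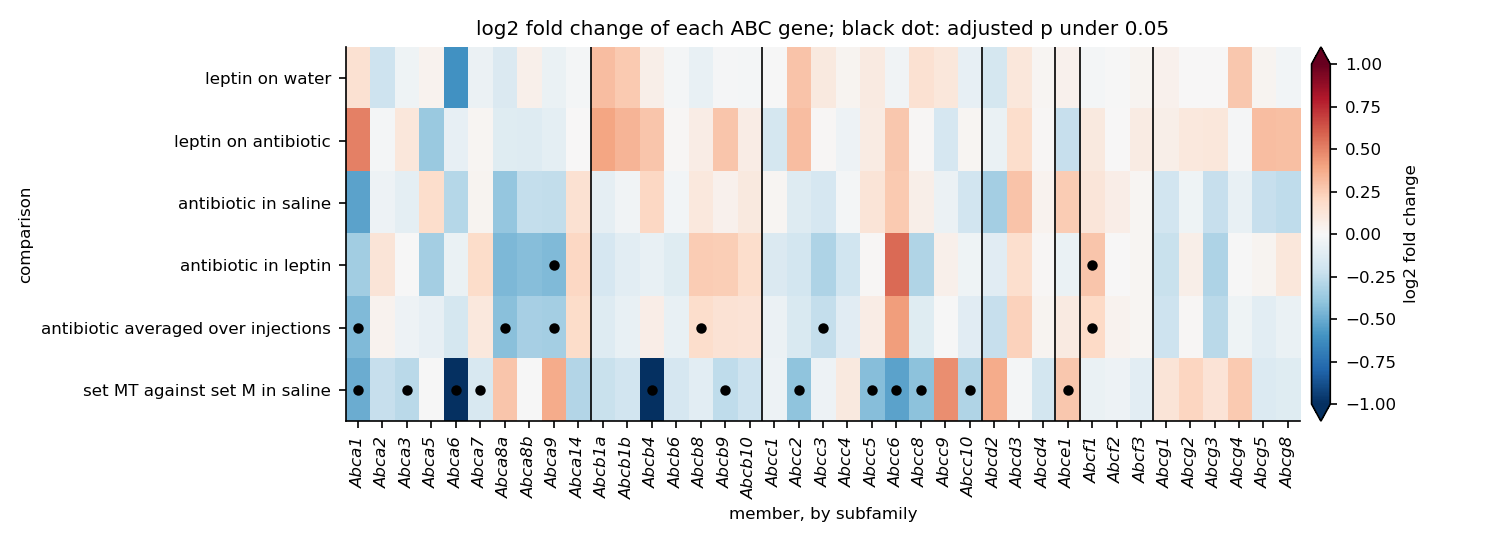
log2 fold change of 39 ABC genes (x axis, by subfamily) in 6 comparisons (y axis); colour runs from -1 (blue) to 1 (red), values beyond take the end colour, and black dots mark an adjusted p under 0.05 in edgeR. Dots number 6 for antibiotic averaged over injections, 2 for antibiotic in leptin, 12 between the sets and 0 in the other rows.

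Between the sets, 13 ABC genes differed within the same labelled condition. Saline-water libraries of set MT were compared with those of set M, and 13 of 41 members passed, beside 17.3% of all genes. In set MT 11 were lower, beside 8.97% of all genes, and 2 were higher, beside 8.28%. With upper quartile scaling 9 were lower and 4 higher, beside 17.8% of all genes, and with RLE scaling 11 and 4, beside 17.4%. At an unadjusted p under 0.05 there were 21 members, beside 31.4% of all genes. The median log2 difference was -0.11 over the members and 0.0018 over all genes. Library names and replicate numbers separate the sets, and the labels do not state what else differs between them. This difference and any other that goes with the sets therefore cannot be told apart.

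Abca6 (chr11:110176820-110251776, minus strand) differed most. Its levels were 1.52, 4.46 and 6.10 CPM in the 8 libraries of set M against 0.540, 0.747 and 1.36 in the 6 of set MT, with no overlap, and it was lower in set MT by a log2 difference of -2.28 (SE 0.32, adjusted p = 1.89e-05 in edgeR). Abcb4 (chr5:8893717-8959231, plus strand), known as the phosphatidylcholine transporter of the hepatocyte bile canaliculus, ran at 1.96, 4.05 and 4.94 CPM in set M against 0.825, 1.28 and 2.14 in set MT. Its log2 difference was -1.58 (SE 0.23, adjusted p = 3.3e-05 in edgeR), and 5 of 6 libraries of set MT lay under every library of set M. Both genes were among the scarcest of the family.

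Of the hepatocyte markers in the table, 3 of 3 were lower in set MT, and Alb, Apoh and Serpina1a had medians of 208, 6.02 and 17.9 CPM across set M against 0.322, 0.488 and 0.197 across set MT. After removal of the mean of each group and set, the hepatocyte score (mean log2 CPM of the 3 markers) correlated with Abca6 over 39 libraries at Pearson's r = 0.56 and Spearman's rho = 0.49 (permutation p = 0.00034 and 0.00251, the same after adjustment over 10 relations). That r was 0.96 within set M and 0.32 within set MT, and 0.43 without the 2 farthest libraries. For Abcb4, r was 0.64 and rho 0.71 (permutation p = 1e-05, adjusted 1.43e-05). That r was 0.84 within set M, 0.49 within set MT and 0.65 without the 2 farthest. Both relations belong to 10 chosen with results of these data known, and the permutation p-values do not account for that choice. The only high library of set MT, Saline-antibiotic 2, had the highest Abca6 of that set, 1.37 CPM, where the others reached 1.36. Its Abcb4 level of 2.02 CPM lay within the others' range, which reached 2.31. Their part in the result was not tested. A fit with the hepatocyte score as a covariate called 0 members, beside 0.0734% of all genes, but in it the score and the set could hardly be separated, and Abca6 then had a log2 difference of 1.98 with an SE of 0.79.

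**Figure D4:**
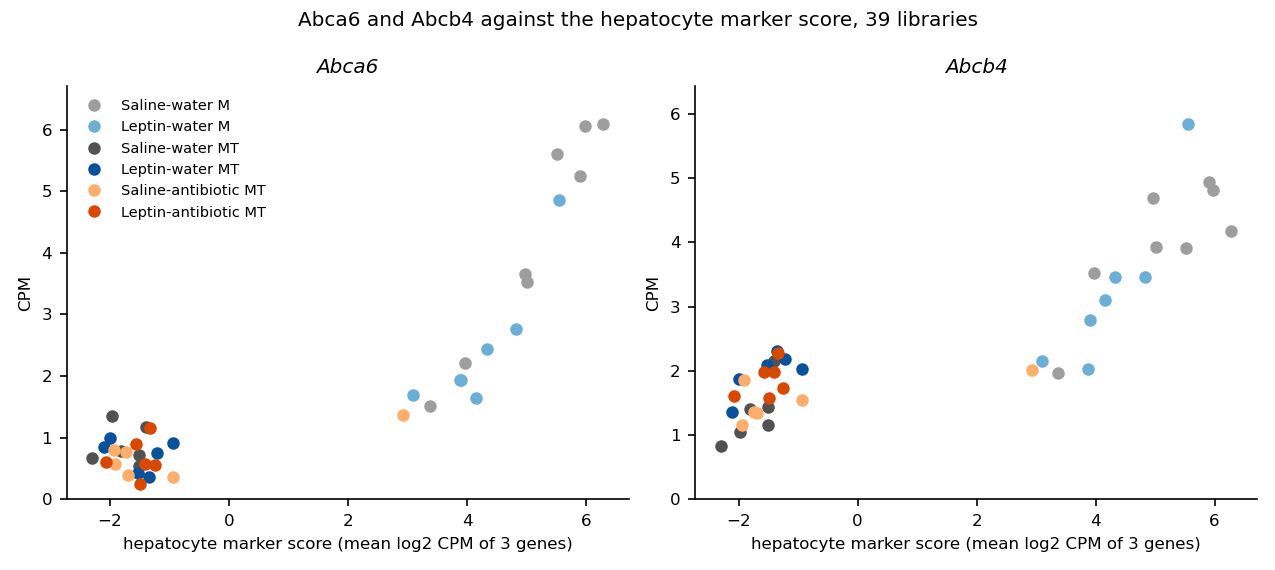
Level of Abca6 and Abcb4 in CPM (y axes) against the hepatocyte marker score in log2 CPM (x axes) in 39 libraries, coloured by group and set. All 15 set M libraries lie to the right with scores of 3.09 to 6.28, 23 of the 24 set MT libraries lie at or under -0.94, and both genes are higher at higher scores within set M.

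The other members that differed between sets changed less. In 2 members, Abca6 among them, the groups did not overlap, beside 3.85% of all genes. Abce1 was higher by 0.27 (adjusted p = 0.0231). Abca1 was lower by a log2 difference of -0.49 (adjusted p = 0.0075), Abcc2 of -0.40 (adjusted p = 0.0314) and Abcc10 of -0.30 (adjusted p = 0.00121). Abca3, Abcc5, Abcb9, Abca7, Abcc6 and Abcc8 had differences between -0.16 and -0.53. Just outside the threshold, Abca9 had 0.37 (adjusted p = 0.0506) and Abcc9 0.46 (adjusted p = 0.0645), and Abcd2 had 0.37 (adjusted p = 0.25). Exons of Abcc10 overlap Dlk2, and those of Abca3 overlap D330041H03Rik, on the opposite strand. The strand setting of the counting is not given in the sources used here, so reads of those pairs cannot be told apart. Leaving out 1 library ended the call of Abcc8 in 16 of 27 cases. It ended the calls of Abcc2 and Abcc6 without Saline-water 3, 7, 8, 9 or 13, that of Abcc2 also without Saline-water 4 or 12 and that of Abcc6 also without Saline-water 5 or 14. Abca7 lost its call without Saline-water 9, 13 or 14, Abcb9 without Saline-water 9 or 13, and Abce1 without Saline-water 7 or 9. Without Saline-water 9 Abcc2 had a difference of -0.26.

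Abcb1a and Abcb1b, Abcg5 and Abcg8, and Abca8a and Abca9 are pairs of neighbours that were correlated across libraries. No relation between other neighbours was tested. All correlations were taken over 39 libraries on log2 CPM after removal of the mean of each group and set, with 100000 permutations within those strata. They are 10 relations chosen with results of these data known, and the permutation p-values do not account for that choice. Libraries share depth and tissue makeup, so the values describe the libraries.

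Abcb1a and Abcb1b lie 49572 bases apart on chromosome 5. They correlated at Pearson's r = 0.96 and Spearman's rho = 0.95 (permutation p = 1e-05, the smallest that 100000 permutations give, adjusted 1.43e-05), with r = 0.95 without the 2 libraries farthest from the median and 0.96 within each set. Abcb1a ran from 88.2 CPM in Saline-water 9 to 358 CPM in Leptin-water 1, and Abcb1b from 9.01 CPM in Saline-water 9 to 34.1 CPM in Leptin-antibiotic 2. Their annotated transcripts share 889 words of 50 bases, the read length, which is 16.3% of the words of Abcb1a and 11.1% of those of Abcb1b. Reads from such stretches can be split between the pair, so the value of the lower gene and the correlation of the pair are uncertain. Abcb1a averaged 237 CPM and Abcb1b 20.2 CPM over the 39 libraries, and the part of shared reads in the correlation was not tested. Of 820 pairs of members 7 shared any 50-base word, and the next most was Abcb1a with Abcb4, at 127.

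The stretches before the RefSeq starts of the pair are shown because the counts of the pair moved together. Both are from GRCm38.p6, plus strand, Abcb1a from chr5:8566841-8567090 and Abcb1b from chr5:8797897-8798146. RefSeq starts Abcb1a at 8567091, far upstream of the annotated gene of GENCODE vM21, which starts at 8660077. Capitals mark the HNF4A-type site CAAAGTTCA, the CCAAT box CCAAT and the GC box CCGCCC, searched on both strands.
Abcb1a: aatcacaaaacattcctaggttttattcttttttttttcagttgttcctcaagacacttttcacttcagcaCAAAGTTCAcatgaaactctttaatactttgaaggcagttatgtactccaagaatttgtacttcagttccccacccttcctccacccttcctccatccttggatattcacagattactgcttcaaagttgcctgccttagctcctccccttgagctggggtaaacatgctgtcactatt
Abcb1b: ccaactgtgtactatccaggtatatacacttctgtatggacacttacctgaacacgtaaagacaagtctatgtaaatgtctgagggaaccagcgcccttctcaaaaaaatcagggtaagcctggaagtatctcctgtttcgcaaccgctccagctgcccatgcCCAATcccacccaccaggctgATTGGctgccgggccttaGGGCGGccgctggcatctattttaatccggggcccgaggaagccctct
Neither stretch held a marked word of the other. CAAAGTTCA occurs in 0.335% of the 32817 promoters, CCAAT in 33.8% and CCGCCC in 32.7%.

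Abcg5 and Abcg8, whose shared interval is printed above, correlated at r = 0.91 and rho = 0.86 (permutation p = 1e-05, the smallest possible, adjusted 1.43e-05), with r = 0.85 without the 2 farthest libraries, 0.85 within set M and 0.92 within set MT. Abcg5 ran from 121 to 228 CPM and Abcg8 from 141 to 259 CPM, and Saline-water 9 was lowest and Saline-water 10 highest for both. Their annotated exons overlap on opposite strands, so reads there cannot be told apart either. Abca8a and Abca9, 4771 bases apart, correlated less, at r = 0.66 and rho = 0.59 (permutation p = 3e-05 and 0.00041, adjusted 3.33e-05 and 0.000456), with r = 0.59 without the 2 farthest, 0.82 within set M and 0.55 within set MT. Abcb1a and Abcc2, on different chromosomes, correlated at r = 0.79 and rho = 0.68 (permutation p = 1e-05 and 2e-05, adjusted 1.43e-05 and 2.5e-05), with r = 0.65 without the 2 farthest, 0.73 within set M and 0.81 within set MT.

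**Figure D5:**
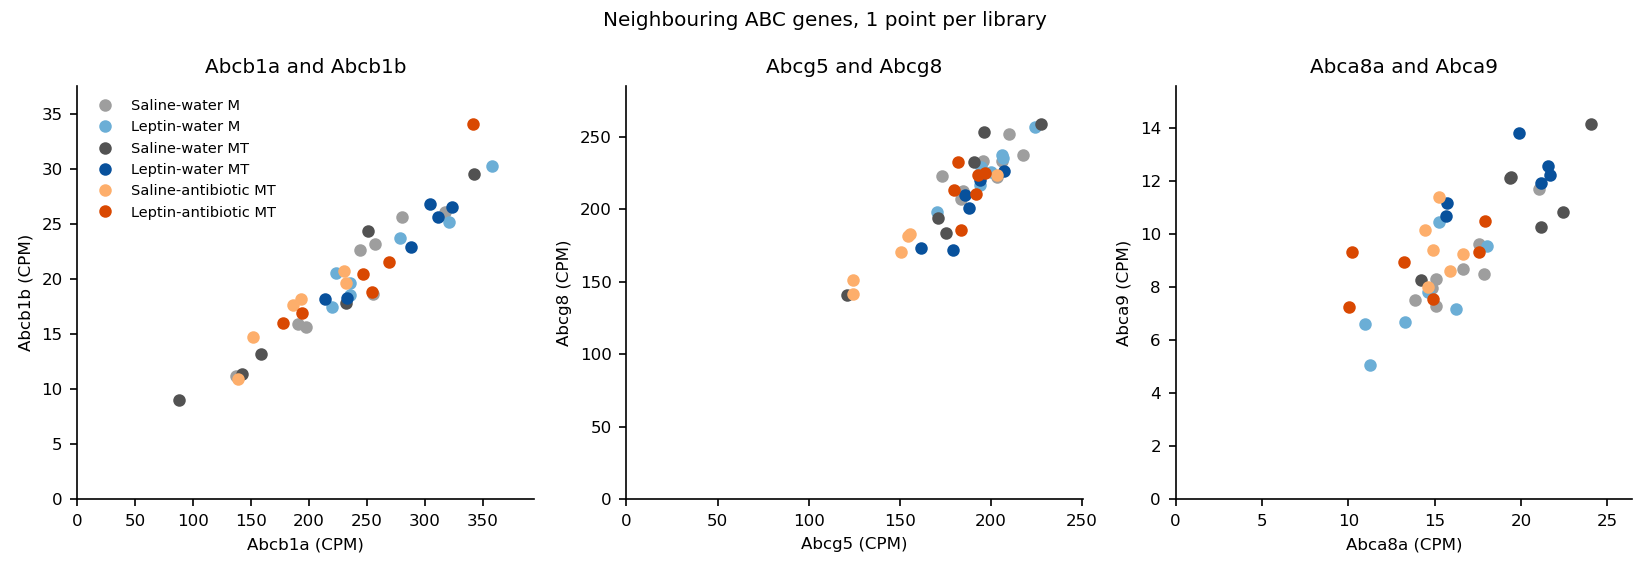
Levels in CPM of 3 pairs of neighbouring ABC genes (x and y axes), 1 point per library, coloured by group and set. Abcb1a and Abcb1b, and Abcg5 and Abcg8, lie close to a line through the groups, and Abca8a and Abca9 scatter more.

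Some members varied with marker scores of a cell type across libraries. The values are a description, since these members were picked for high correlations among all members and scores. Abcc9 correlated with the smooth muscle score at r = 0.84 and rho = 0.80, with r = 0.76 without the 2 farthest, 0.85 within set M and 0.88 within set MT. It was not tied to that score alone, with r = 0.795 for the enteric neuron and glia score and 0.683 for the pericyte and endothelium score. Abcg2 correlated with the enterocyte score at r = 0.81 and rho = 0.81, with 0.78 without the 2 farthest, 0.73 within set M and 0.84 within set MT. Abcc1 ran the other way, at r = -0.78 and rho = -0.78, with -0.74 without the 2 farthest, -0.69 within set M and -0.80 within set MT. Of the members called with antibiotic, Abcf1, Abcb8, Abca1, Abca8a, Abca9 and Abcc3 had r = -0.137, -0.031, 0.175, 0.194, 0.257 and 0.5 with the enterocyte score. Abca9 had r = -0.598 with the smooth muscle score and 0.512 with the macrophage score. Abcc3 had 0.522 with the macrophage score and 0.544 with the T cell score. The T cell score averaged 2.74 (SD 0.349) in the 12 water libraries of set MT and 2.50 (SD 0.532) in the 12 antibiotic libraries. The enterocyte, smooth muscle and macrophage scores also moved with antibiotic. The part of any of these scores in the result was not tested beyond the fits with covariates.

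Family members outside the symbol pattern did not pass in any comparison. Cftr, the ABC protein that works as a chloride channel, had 328, 418 and 494 CPM on water and 340, 486 and 645 on antibiotic in set MT, a log2 difference of 0.26 (SE 0.09, adjusted p = 0.102 in edgeR). Tap1 and Tap2, which feed peptides to class I antigen presentation, had differences of 0.10 (adjusted p = 0.677) and 0.02 (adjusted p = 0.933).

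Genes that work with these transporters were read from a list of 45 in the table, which includes those 3. With antibiotic averaged over injections, 3 rose and 6 fell, beside 4.24% and 2.22% of all genes. Of 13 sensors and regulators, 1 fell, namely Nr1h4, which encodes the bile acid receptor FXR (-0.35, SE 0.08, adjusted p = 0.00743 in edgeR), from 35.0, 44.8 and 57.6 CPM on water to 30.1, 35.1 and 43.1. Of 10 uptake carriers and drug-metabolising enzymes, 3 fell, namely Cyp3a11 (-0.96, adjusted p = 0.0015), Cyp3a25 (-0.80, adjusted p = 0.00118) and Gstm1 (-1.09, adjusted p = 0.00164). These belong to families of near-identical genes, so their reads can be split between copies. Of 11 sterol genes, Soat2, the cholesterol-esterifying enzyme of enterocytes, rose (0.29, adjusted p = 0.0237) and Mylip, which degrades the LDL receptor, fell (-0.34, adjusted p = 0.0228). Of 3 bile acid carriers, Slc10a2, the ileal bile acid importer, rose (0.85, adjusted p = 0.00252) at a level of 1.080 CPM on water and 2.06 on antibiotic (medians of 12). Of 5 heme genes, the heme exporter gene Flvcr1 rose (0.38, adjusted p = 0.0367) and the heme oxygenase gene Hmox1 fell (-1.42, adjusted p = 0.00434). With upper quartile scaling in edgeR Flvcr1 had 0.33 (adjusted p = 0.0504), and DESeq2 gave Hmox1 no adjusted p.

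With leptin after antibiotic, 3 of the 45 rose and none fell, beside 0.514% of all genes called, and all 3 encode nuclear receptors. Nr1i2, which encodes the pregnane X receptor that senses drugs and bile acids, rose by 0.48 (SE 0.08, adjusted p = 0.0098 in edgeR), from 95.4, 117 and 126 CPM to 141, 161 and 171, with no overlap. Ppara rose by 0.59 (SE 0.14, adjusted p = 0.048 in edgeR), from 94.8, 115 and 144 CPM to 155, 170 and 208. Nr1h3, which encodes the sterol sensor LXR alpha, rose by 0.31 (SE 0.07, adjusted p = 0.034 in edgeR), from 25.3, 28.0 and 31.0 CPM to 31.2, 33.9 and 39.3. With the enterocyte score as a covariate 0% of all genes passed in this comparison, and Nr1i2, Ppara and Nr1h3 had differences of 0.35, 0.44 and 0.24 (adjusted p = 0.266, 0.558 and 0.497). Without the libraries high in pancreas genes, which removes 3 Saline-antibiotic libraries and 1 Leptin-antibiotic library, 0% passed as well, and the differences were 0.39, 0.55 and 0.28 (adjusted p = 0.294, 0.407 and 0.355). On plain water, leptin called 0 of the 45 in edgeR, beside 0.312% of all genes, with 3 at an unadjusted p under 0.05, beside 11.4%.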

How the data were processed

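The deposited table holds whole-number counts per gene for 39 libraries of bulk duodenum, made by the authors with FastQC, HISAT2, featureCounts and edgeR 3.42.0 on mm10, per the submitters' processing notes. The labels' protocols describe ribosomal RNA depletion and a stranded ligation kit from 150 ng of RNA. Not given in the sources used here were the rule that filtered the table, the annotation and the strand setting.

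From those counts, edgeR 4.0.16 (R 4.3.3) gave TMM factors, CPM and quasi-likelihood F tests with filterByExpr and Benjamini-Hochberg adjustment over all genes tested, at 0.05. Log2 CPM used a prior count of 2. Water comparisons of leptin used all 27 water libraries and a term for set. Antibiotic comparisons used the 24 libraries of set MT with 1 mean per group, and comparisons between sets used 1 mean per group and set. Levels per kb used union exon lengths from GENCODE vM21 (GRCm38, the same assembly as mm10), matched for 97.8% of genes, and positions come from it. Promoter sequences are RefSeq's, with an entry for 29 members.

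Genes named with values were, apart from 2 members that are not reported here and stay in all fits and counts, every called member, a core set of transporters, the 3 highest and 3 lowest differences per comparison, the 8 highest and 4 lowest levels, and called genes of the related lists. The members and lists were chosen with earlier results of these data known. Alternatives were DESeq2 1.42.0, limma 3.58.1 voom, other scalings, no filter, a fit of all 39 libraries, marker scores as covariates, a replicate block and each library left out. The hepatocyte and enterocyte covariates and the removal of 6 libraries high in pancreas genes were chosen after seeing the data. On simulated counts for the antibiotic comparison (16340 genes), 93% of 100 genes changed by 1 log2 unit and 75% of 100 changed by 0.5 were recovered. These shares were 89% and 47% for leptin on antibiotic, 98% and 78% for leptin on water, and 91% and 62% between sets. Unchanged genes that were called numbered 8, 6, 7 and 8 in that order of comparisons. Smaller changes were not simulated. Each gene was drawn independently, so the shares leave out variation that genes have in common, such as tissue makeup. The 109 pairs of libraries within a group and set differed by more than counting noise.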

Additional observations from a re-analysis of the deposited data

Results flagged for a closer look

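In 23 named members, 138 groups of 6 to 8 libraries were searched for 1 library far from the rest, and 4 stood out. Chance gives about 1 in 20 groups, which is a larger share, so the 4 are listed only as a description. Leptin-water 1 had the highest level of its group for both Abca6 and Abcb4. It reached 4.86 CPM for Abca6, with the next library at 2.767, and 5.851 CPM for Abcb4, with the next at 3.462. Leptin-antibiotic 2 reached 34.127 CPM for the P-glycoprotein gene Abcb1b, with the next at 21.566. Leptin-water 12 reached 26.588 CPM for Abcc6, with the next at 19.543.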

How the results depend on the processing

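Leptin on water, its test between sets and the interaction with antibiotic called 0 members under every alternative run, including each library left out, and the replicate block on water (0, with 6 at an unadjusted p under 0.05). With DESeq2 or 1 fit of all 39 libraries the members called were 2 and 2 for leptin on antibiotic, 1 and 1 for antibiotic in saline, and 6 and 9 for antibiotic in leptin. Limma voom called 10 for antibiotic in leptin and 11 for antibiotic averaged over injections, and the fit of all 39 libraries 11 for the latter. Tissue scores as covariates gave 1 for antibiotic in saline and 5 in leptin, the enterocyte score 3 in saline, and leaving out the libraries high in pancreas genes 1 in leptin. The hepatocyte score as a covariate gave 0 between sets. The sign changed with the enterocyte score for antibiotic averaged over injections in Abcg2 (-0.25), and with the hepatocyte score between sets in Abca6 (1.98), Abcb4 (1.60), Abcc2 (0.72) and Abcc5 (0.25). The cause of these changes was not tested. With each library left out, the counts ran from 0 to 1 for leptin on antibiotic (1, Abca1, without Saline-antibiotic 6), 1 to 5 for antibiotic in leptin, 4 to 9 averaged (9 without Leptin-water 12) and 9 to 16 between sets. Of all genes, antibiotic in leptin called 372, against 787 in DESeq2, 1394 in limma voom and 1917 in the fit of all 39 libraries. The replicate numbers gave no clear pairing of the libraries. Deviations of same-numbered libraries correlated between -0.197 and 0.206 in set M, -0.12 and -0.01 on water in set MT, and -0.212 and 0.503 on antibiotic. In these, 2 of 7, 0 of 5 and 1 of 6 pairs correlated best with their own number. Only equal numbers were matched, so a pairing in another order was not tested. With the replicate block, leptin on antibiotic called 0 members, with 9 at an unadjusted p under 0.05. Members under 3 CPM, such as Abca6 and Abcb4, rest on few counts.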
